A study of Mus musculus with 2 samples.

Results

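The mouse miRNAs numbered from miR-5097 to miR-5136 were examined in exosomes of LLC cells, a mouse Lewis lung carcinoma line. The members were taken by their number, a choice made with earlier results of these data known. The array held 38 of them among its 1881 mouse miRNAs, under 33 of the 40 numbers. Exosomes had been isolated by ultracentrifugation from the supernatant of LLC cells kept in exosome-free serum, and their RNA was hybridized with the dye Cy3 to 1 Agilent mouse miRNA array in each of 2 independent experiments, called replicate 1 and replicate 2. All samples belong to 1 group, from 1 cell line without any treatment, and no array of the cells themselves or of other exosomes was analysed here, so no difference between groups was tested and no p-value was computed. Unless named otherwise, values are fluorescence intensities with the background subtracted by the scanner software, averaged over the spots of a probe and then over the probes of a miRNA.

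miRNAs are short RNAs that guide Argonaute proteins to messenger RNAs, mainly through the seed, the bases 2 to 8 counted from the 5′ end. A precursor hairpin can release a mature miRNA from its 5′ arm (5p) or its 3′ arm (3p). The numbers of miRNAs are given in the order of their entry into the miRBase registry, so neighbouring numbers mark entries of about the same time and neither a shared sequence nor a shared locus. Many entries made from deep sequencing have no function assigned to them. Exosomes are small vesicles that carry RNA of the cell that sheds them, miRNAs included.

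Both arrays called the same 11 of the 38 miRNAs detected. Averaged over probes, their signal ran from below the brightest negative control spot to among the highest of the array. The mature sequences of 9 of the 11 and of miR-5122 and miR-5116, which had the highest level among those detected on neither array, were taken from RefSeq on the build GRCm38.p6. They are the sequences of the miRNAs, and the bases that each probe reads were not examined. The capitals mark the seed.
miR-5100: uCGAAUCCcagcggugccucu
miR-5126: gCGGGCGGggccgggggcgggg
miR-5119: cAUCUCAUccuggggcugg
miR-5128: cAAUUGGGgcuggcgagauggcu
miR-5113: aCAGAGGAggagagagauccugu
miR-5110: gGAGGAGGuagagggugguggaauu
miR-5131: cGGCGCCCcacggagccccgagc
miR-5132-3p: cUGAUGUUccccaucccgcag
miR-5130: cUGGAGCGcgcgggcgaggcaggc
miR-5122: cCGCGGGAcccggggcugug
miR-5116: uUUGAUAGgaaccccgccuga

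A RefSeq sequence was matched by name for 32 of the 38 miRNAs. The detected miR-5107-5p and miR-5112 and the undetected miR-5099, miR-5107-3p, miR-5127 and miR-5134-5p are named only. The 32 sequences held 32 different seeds, so no seed was shared among these 32, and the seeds of the others were not compared. Seeds were also compared with those of the 1608 miRNAs of the array that had a sequence. Among the 9 detected miRNAs with a sequence, miR-5110 alone had a seed that recurs there, in miR-7081-5p, which was not detected on both arrays. The 9 sequences were from 19 to 25 bases long, and 3 came from the 5′ arm of their hairpin (miR-5110, miR-5113 and miR-5130) and 6 from the 3′ arm.

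These 9 sequences lay on 6 chromosomes of GRCm38.p6 and within the spans of protein-coding genes. Most of the undetected miRNAs with a sequence also lay within such spans, and the share over the array is not given here. The miR-5100 sequence is at chr11:60728698-60728718 on the + strand, within the span of *Mief2*, a gene of mitochondrial fission. The miR-5119 sequence is at chr11:98262638-98262656 on the + strand, within *Cdk12*, which encodes a kinase of RNA polymerase II. The miR-5110 sequence is at chr11:85760675-85760699 on the − strand, within *Bcas3*. The miR-5126 sequence is at chr1:84695890-84695911 on the + strand, within *Dner*, which encodes a Notch-related membrane protein. The miR-5128 sequence is at chr2:37688212-37688234 on the − strand, within *Strbp*, which encodes an RNA-binding protein. The miR-5113 sequence is at chr15:80940049-80940071 on the + strand, within *Tnrc6b*, which encodes a partner of Argonaute. On chromosome 14, miR-5130 is at chr14:102982608-102982631 on the − strand, within *Kctd12*, and miR-5131 is at chr14:45657972-45657994 on the − strand, within *Ddhd1*. The miR-5132-3p sequence is at chrX:74023534-74023554 on the − strand, within *Irak1*, which encodes a kinase of Toll-like receptor signalling towards NF-κB. The table used here gives the span of a gene without its exons or strand, so intronic and exonic positions were not distinguished. Among the undetected miRNAs, both arms of miR-5129 lie within *Zeb2*, which encodes a repressor of epithelial genes, miR-5120 within *Pax5*, a B cell factor, and miR-5116 within *Mmgt1*.

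Each array held 58594 spots, and every miRNA was printed with 30 of them. The 75th percentile of the probes that both arrays detected was lower in replicate 2, at 39.95 intensity units, against 50.2 in replicate 1. The brightest negative control spot reached 9.45 units in replicate 1 and 9.35 in replicate 2. As a check of the label, 4 of 5 widely expressed miRNAs were detected on both arrays, with miR-16-5p, at 2.82 and 2.39 units, as the exception. None of 7 blood miRNAs, of 5 miRNAs of the epithelial miR-200 family, or of the liver miRNA miR-122-5p was detected on either array, and their intensities ran from −2.17 to 8.15 units. Of 3 muscle miRNAs, miR-206-3p was detected, at 27.1 and 21.4 units.

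In replicate 1, 11 of the 38 miRNAs were called detected by the software, and in replicate 2 again 11, which were the same miRNAs. This was 28.9% of the set, whereas 11.5% of all 1881 mouse miRNAs were detected on both arrays, 13.5% in replicate 1 and 11.9% in replicate 2. The remaining 27 were detected on neither array, and none was detected on 1 array alone. A stricter call asked that 50% or more of a probe's spots stood well above background in each replicate, and 7 of the 38 passed it, or 18.4% against 7.07% of the array. These were miR-5100, miR-5110, miR-5112, miR-5113, miR-5119, miR-5126 and miR-5128. With a looser call, for which spots had to be positive and significant against background, 15 passed, or 39.5% against 25.2% of the array, and the additions were miR-5099, miR-5103, miR-5116 and miR-5122.

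**Figure D1:**
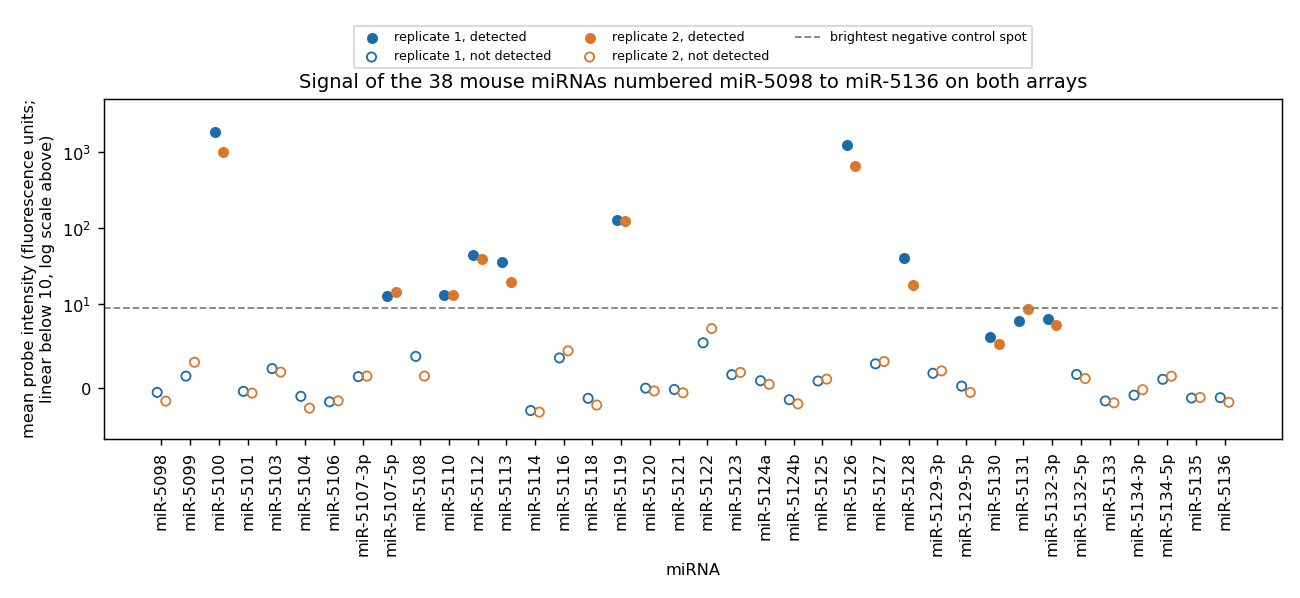
Mean probe intensity (y axis, fluorescence units, linear below 10 and logarithmic above) of the 38 miRNAs (x axis, in order of number) on the arrays of replicate 1 and replicate 2. Filled points are miRNAs called detected, open points are those not detected, and the dashed line is the brightest negative control spot of 9.45 units. The points of miR-5100 and miR-5126 lie far above all others, and all 27 undetected miRNAs lie below the line. The averages of the detected miR-5130, miR-5131 and miR-5132-3p, which include an undetected probe, lie below it too.

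The 2 brightest of the detected miRNAs were miR-5100 and miR-5126. The intensity of miR-5100 was 1794 units in replicate 1 and 984 in replicate 2, and that of miR-5126 was 1216 and 647. The next, miR-5119, had 127 and 123 units, far below both. A middle range was formed by miR-5112 with 43.6 and 38.8 units, miR-5128 with 39.97 and 17.8, and miR-5113 with 35.5 and 19.2. The remaining 5 lay within a few units of the brightest negative control spot. Their intensities were 13.1 and 12.8 units for miR-5110 and 12.7 and 14.4 for miR-5107-5p. Those of miR-5132-3p were 8.17 and 7.51, of miR-5131 7.95 and 9.32, and of miR-5130 6.09 and 5.23. An undetected probe entered the averages of miR-5132-3p, miR-5131 and miR-5130. Their detected probes had 11.6 and 11.4, 11.1 and 12.1, and 11.9 and 11.8 units, in this order. Because different probes bind with different strength, the order of these miRNAs is one of signal and not of amount.

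Signal was thus concentrated in few miRNAs. Of the summed intensity of the 38, with values below 0 set to 0, miR-5100 held 53.8% in replicate 1 and 51.5% in replicate 2. Together with miR-5126 it held 90.3% and 85.4%, and the 5 brightest held 96.6% and 94.9%. The whole set made up 2.02% of the mouse miRNAs of the array and 11.4% of their summed intensity in replicate 1, and 7.26% in replicate 2. The miRNAs numbered miR-6335 to miR-6420 and miR-8090 to miR-8120 made up 6.38% of the miRNAs and held 23.1% and 20.8% of the intensity. Those numbered miR-3057 to miR-3112 made up 5.69% and held 3.71% and 4.07%.

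For ranks, intensities were divided by the 75th percentile of the array, the log2 was taken for each spot, and the spots and probes were averaged, which gives a level of 0 at that percentile. Among the 216 miRNAs detected on both arrays, miR-5126 was at rank 7 and miR-5100 at rank 8, followed by miR-5119 at rank 23 and miR-5112 at rank 53. The order of the first pair depended on the summary, since by the brightest probe miR-5100 was at rank 5 and miR-5126 at rank 9, and by the sum of the detected probes at ranks 5 and 8. The level of miR-5112 was −0.19 ± 0.11, that of miR-5113 −0.97 ± 0.43 at rank 71, that of miR-5107-5p −1.78 ± 0.40 at rank 130, and that of miR-5110 −1.89 ± 0.15 at rank 138 (SD, n = 2 arrays). The levels of miR-5107-5p and miR-5110 overlapped between the arrays, so their order was not resolved. For miR-5110 a probe that was not detected in replicate 2 entered the average. In the other 4 such a probe entered it on both arrays, and they were at ranks 160 (miR-5128), 187 (miR-5131), 197 (miR-5132-3p) and 214 (miR-5130). The rank of miR-5128 was 80 without replicate 2 and 196 without replicate 1.

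The 27 undetected miRNAs had intensities from −2.66 to 5.36 units in replicate 1 and from −2.85 to 7.05 in replicate 2, and 13 of them were below 0 on both arrays. Those with the highest level were miR-5122 with 5.36 and 7.05 units, miR-5116 with 3.57 and 4.41, and miR-5127 with 2.87 and 3.14. The software calls a probe detected when its total signal exceeds 3 times its error. The better probe of miR-5122 reached 1.958 times its error in replicate 1 and 2.30 times in replicate 2, whereas the better probe of miR-5131, the detected miRNA nearest to the limit in replicate 1, reached 3.48 and 3.68 times. The average of miR-5122 over its probes lay below that of miR-5130 in replicate 1 and above it in replicate 2, since the signal of miR-5130 came from 1 of its 2 probes. At this signal over background, a miRNA of a few units is not distinguished from background, and a missing call does not show that it is absent.

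The 38 miRNAs had 79 probes, 2 each for 35 of them and 3 each for miR-5118, miR-5119 and miR-5134-5p. Of the 23 probes of the 11 detected miRNAs, 19 were detected in replicate 1 and 18 in replicate 2. All probes were detected on both arrays for 6 of the miRNAs, namely miR-5100, miR-5107-5p, miR-5112, miR-5113, miR-5119 and miR-5126. In miR-5128, miR-5130, miR-5131 and miR-5132-3p 1 probe was detected and the other was not, on either array, and the first probe of miR-5110 was missed in replicate 2 alone.

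The probes of miR-5100 were far apart, with 399 ± 15.6 and 3189 ± 109 units in replicate 1 and 212 ± 6.97 and 1756 ± 40.03 in replicate 2 (SD over spots). Those of miR-5126, in contrast, were nearly equal, with 1260 ± 52.4 and 1172 ± 49.5 units in replicate 1 and 662 ± 20.6 and 633 ± 16.3 in replicate 2. On the log2 scale, the probes of miR-5100 differed by 2.998 and 3.051 on the arrays and those of miR-5126 by 0.10 and 0.06. A set of 3 probes for miR-5119 formed steps, at 41.2, 86.6 and 254 units in replicate 1 and 39.0, 86.4 and 245 in replicate 2. Of the probes of miR-5128, the first had 7.64 and 3.34 units and the second 72.3 and 32.3. The second probe thus carried nearly all of the signal of miR-5128.

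Over the 6 miRNAs with all probes detected, the median difference between the dimmest and the brightest probe was 1.104 on the log2 scale, and over the 140 such miRNAs of the array it was 0.36. With undetected probes included, it was 1.40 over all 11 miRNAs and 0.46 over the 215 of the array. In the deposited names probes carry running numbers, and the probe with the last number was the brighter one on both arrays for 10 of the 11 detected miRNAs, with miR-5126 as the exception. Among all 215 miRNAs detected on both arrays with several probes, this held for 154, or 71.6%. Sequences of the probes were not used here. Over the detected probes, the spots of a probe had a coefficient of variation from 3.43% to 37.7% in replicate 1, with a median of 12.5%. In replicate 2 it ran from 2.28% to 30.2%, with a median of 14.7%. The lowest values were those of the second probe of miR-5100. The highest were those of dim probes, the first of miR-5107-5p in replicate 1 and the first of miR-5113 in replicate 2.

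**Figure D2:**
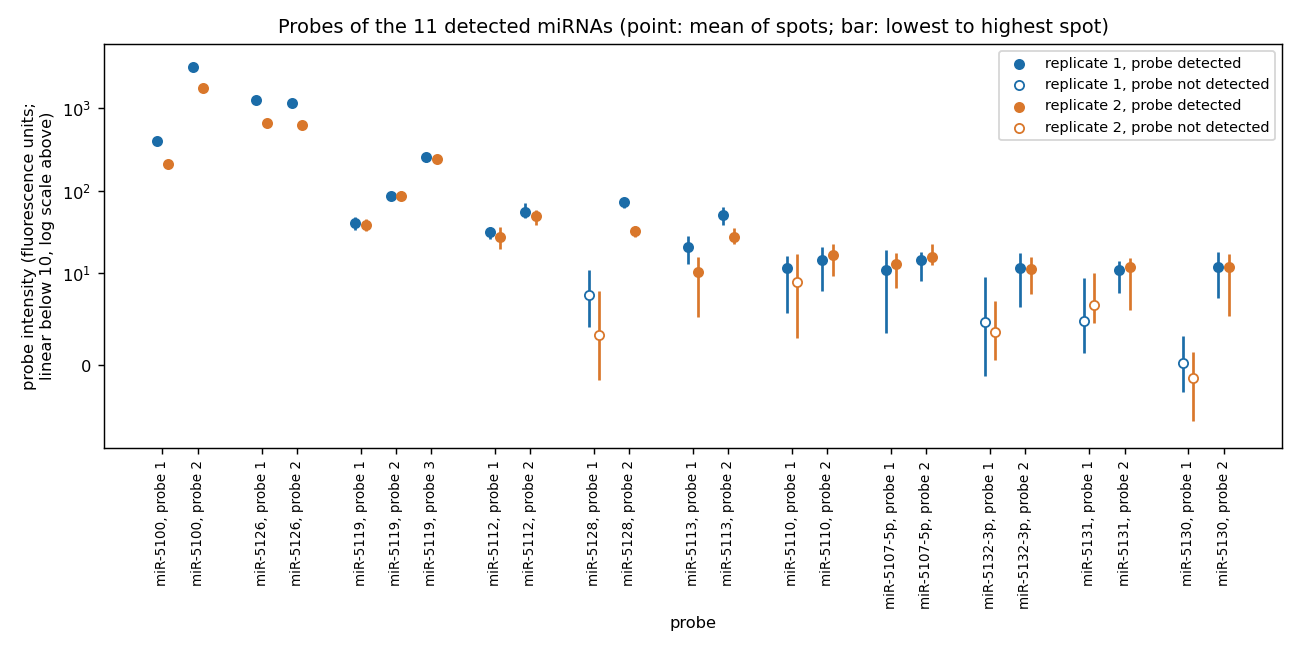
Intensity of each probe (x axis) of the 11 detected miRNAs on both arrays (y axis, fluorescence units, linear below 10 and logarithmic above). Points are means over the spots of a probe, bars run from the lowest to the highest spot, and open points are probes not detected. In 10 of the 11 miRNAs the last probe is the brightest, and the spots of both probes of miR-5100 and of miR-5126 do not overlap between the arrays.

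The levels of the 11 miRNAs on the 2 arrays correlated with r = 0.968 (Pearson) and rho = 0.900 (Spearman), given as a description across miRNAs, which share their arrays and are not independent samples. For all 216 detected miRNAs the values were 0.936 and 0.895. The median difference without regard to sign was 0.58 on the log2 scale for the 11 and 0.35 for the 216, so the 11 did not lie closer together between the arrays. Differences over 1 log2 unit occurred in miR-5128 and miR-5130, both with a probe that was not detected. The level of miR-5130 was −7.53 in replicate 1 and −9.16 in replicate 2, far below the rest of the 11. Spots at or below 0 in its undetected probe had been set to the smallest positive value. A level this far from the rest weighs on Pearson's r, and r without miR-5130 was not computed. After scaling, 6 of the 11 were higher in replicate 2, and so were 143 of the 216.

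Without scaling, the 11 fell into those that kept their intensity between the arrays and those that were lower by close to 50% in replicate 2. In miR-5100, the first probe had a ratio of replicate 2 to replicate 1 of 0.531 and the second of 0.551. For miR-5126 the ratios were 0.525 and 0.540, for miR-5113 0.503 and 0.557, and for the detected probe of miR-5128 0.446. In contrast, the 3 probes of miR-5119 had ratios of 0.946, 0.997 and 0.965, those of miR-5112 0.881 and 0.895, and those of miR-5107-5p 1.17 and 1.097. The detected probes of miR-5130, miR-5131 and miR-5132-3p had 0.994, 1.09 and 0.985, and the second probe of miR-5110 had 1.13. The 75th percentiles used for scaling had a ratio of 0.796, so that miR-5100, miR-5113, miR-5126 and miR-5128 lay below it and the other 7 above it. Most of the array lay above it too, since the median ratio was 0.960 over the 147 miRNAs with at least 2 detected probes.

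The ratio belonged to the miRNA more than to the probe. Among the 6 miRNAs with all probes detected, the mean log2 ratio ran from −0.92 to 0.18 with an SD of 0.50 between miRNAs, whereas the probes of 1 miRNA differed by a median of 0.06 and by 0.15 at most. The same was seen over the 147 miRNAs of the array with at least 2 detected probes, with an SD of 0.50 between miRNAs and a median range of 0.11 within them. Of the 18 probes detected on both arrays, 6 had spots that did not overlap at all between the arrays, which were both probes of miR-5100 and of miR-5126 and the second probes of miR-5113 and miR-5128. Spots are repeats within an array, so they give the precision of that array, and with 1 array per experiment the experiment and the array cannot be told apart. A ratio below 0.6 was found in 3 of the 6 miRNAs, in 18 of the 147 of the array, and in 7 of the 20 brightest of these. The median ratio of the 147 was 0.960, with quartiles of 0.785 and 1.06.

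**Figure D3:**
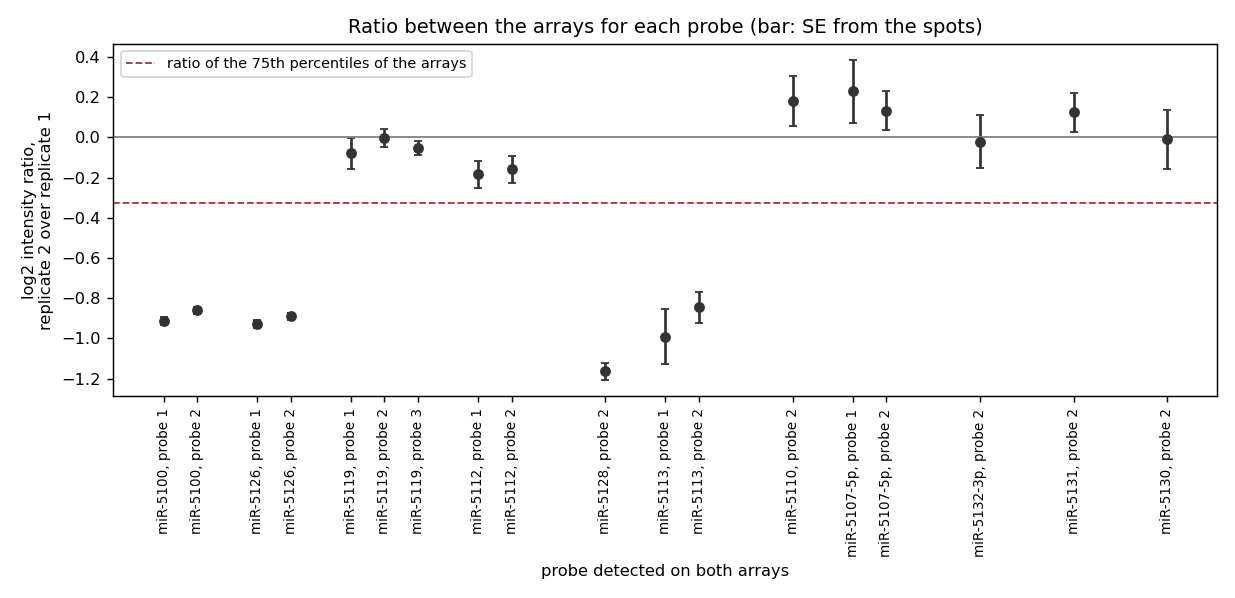
Log2 ratio of the intensity in replicate 2 over replicate 1 (y axis) for the 18 probes detected on both arrays (x axis, grouped by miRNA). Bars are the SE from the spots of a probe, and the dashed line is the ratio of the 75th percentiles of the arrays. Probes of 1 miRNA lie side by side, and those of miR-5100, miR-5113, miR-5126 and miR-5128 lie between −1.16 and −0.85.

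For 4 hairpins both arms were on the array. In the miR-5107 hairpin, the 5p arm was detected, with 12.7 and 14.4 units, and the 3p arm was not, with 1.35 and 1.41. In the miR-5132 hairpin the arms were the other way round, with 8.17 and 7.51 units for the detected 3p arm and 1.61 and 1.13 for the 5p arm. No arm of miR-5129 or miR-5134 was detected. The probes of the arms differ, so the intensities of 2 arms cannot be read as a ratio of their amounts.

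The miR-5128 sequence was close to miR-3473b, which the study went on to examine, as it did miR-5119. Aligned without gaps, 16 of 17 bases were the same, from base 7 to base 23 of miR-5128 and from base 1 to base 17 of miR-3473b, and the capitals mark this stretch.
miR-5128: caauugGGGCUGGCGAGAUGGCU
miR-3473b: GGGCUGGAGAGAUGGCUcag
The seeds of the miRNAs differ, since the stretch starts near the end of the seed of miR-5128. The probes of miR-3473b had 59.5 and 81.7 units in replicate 1 and 59.2 and 76.7 in replicate 2, with ratios of 0.994 and 0.939 between the arrays. The detected probe of miR-5128 had 72.3 and 32.3 units and a ratio of 0.446, so the 2 miRNAs had different ratios between the arrays. The other miRNA with this stretch, miR-3473e, had 19.1 units in its second probe in replicate 1 and 4.05 in replicate 2. Whether a probe for miR-5128 also binds miR-3473b was not tested. Among the other detected miRNAs with a sequence, miR-5113 had a stretch of 14 bases with 13 the same as in the undetected miR-7056-5p, and none of the rest reached 14 bases with at most 1 difference.

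The detected miRNAs were rich in G and C. Over the 9 with a sequence the median share of G and C was 61.9%, from 52.2% in miR-5113 to 100% in miR-5126, which consists of G and C alone. The 23 undetected miRNAs with a sequence had a median of 52.2%, from 36.4% to 85.0%, and the highest of these was miR-5122. For the 1608 miRNAs of the array with a sequence, the medians were 59.1% for the detected and 52.2% for the others. Of the 7 members with a share under 50%, 0 were detected, against 3 of the 6 with 70% or more. On the whole array 6.66% and 29.6% were detected in these ranges. Within the 9 detected miRNAs the correlation of this share with the level was r = 0.03 (Pearson) and rho = 0.03 (Spearman), a description over miRNAs that share their arrays. Base composition, probe binding and the amount of a miRNA cannot be told apart from these values.

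**Figure D4:**
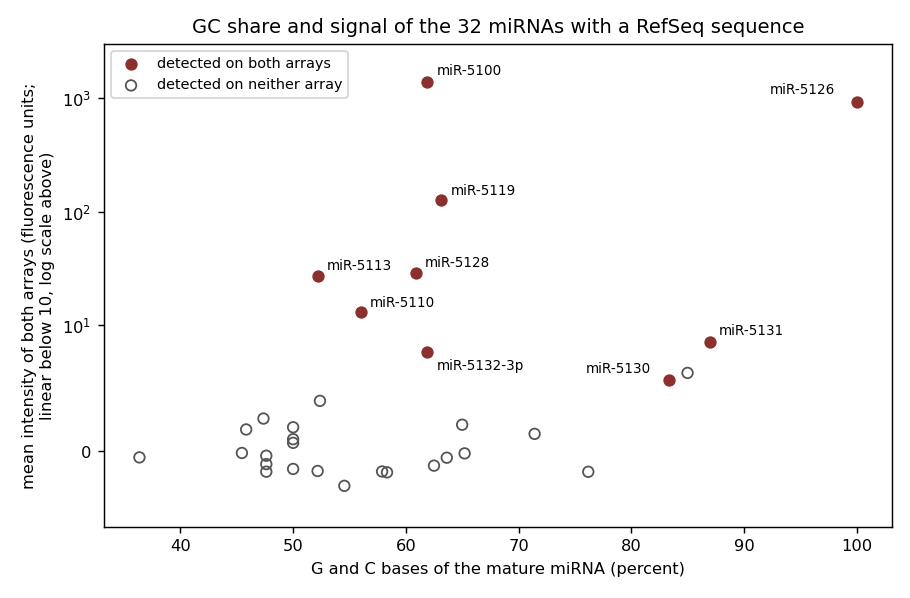
Share of G and C bases in the mature sequence (x axis, percent) and mean intensity of both arrays (y axis, fluorescence units, linear below 10 and logarithmic above) for the 32 miRNAs with a RefSeq sequence. Filled points were detected on both arrays and open points on neither. The open point nearest to the detected ones at the right is miR-5122, with a share of 85.0%.

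Besides the spots, the files give a total signal for each miRNA, and for a group of these miRNAs it was not the signal of their own probes. This quantity is built from a total signal per probe, which the software gives on a scale of its own with lower values than the mean spot intensities above, so the numbers that follow are total signals and are not to be set against those intensities. For the probe of miR-5128 that was detected, the mean intensity in replicate 1 was 72.3 units and the total probe signal was 15.3. In replicate 1 the total probe signals of miR-5126 summed to 516 and its total was 516. The next detected miRNA by number, miR-5128, had 15.3 as the total signal of its own detected probe and a total of 531. The totals went on to 534 for miR-5130, 536 for miR-5131 and 539 for miR-5132-3p, whose own detected probes had total signals of 2.53, 2.36 and 2.46. In each case, the excess matched what the preceding detected miRNA had as its total, to within 0.1%. In replicate 2 the same 4 miRNAs had totals of 281, 284, 286 and 289, which started from 274 for miR-5126, and the total signals of their own detected probes were 6.84, 2.51, 2.57 and 2.42. The total of miR-5110 was also raised in replicate 2, to 9.62 from 3.52, and the excess of 6.11 was the total of miR-5107-5p.

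Thus 4 of the 11 totals in replicate 1 and 5 in replicate 2 were above the summed total signal of their own detected probes, and in each of these the first probe of the miRNA was not detected. In the 7 and 6 others the first probe was detected, and the total was equal to the sum within 0.1%. With the totals, miR-5128, miR-5130, miR-5131 and miR-5132-3p would stand at ranks 11, 10, 9 and 8 of the 216 miRNAs. With the sum of their own detected probes or any other summary used here, their ranks were from 59 to 214. Totals were therefore not used for any level above.

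**Figure D5:**
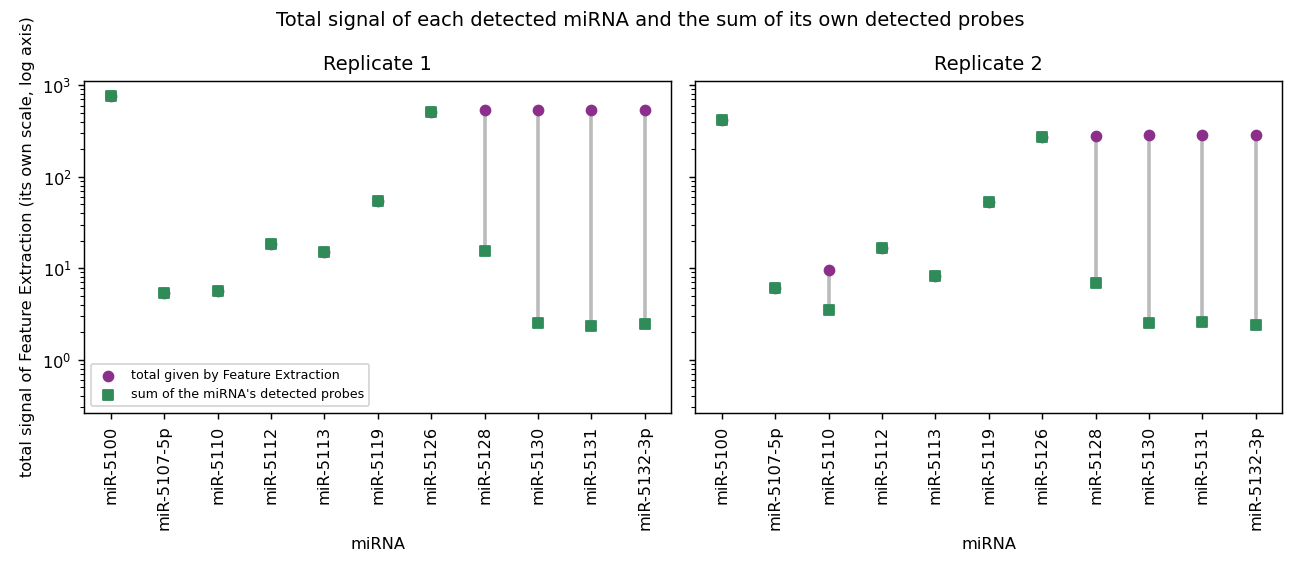
Total signal given by Feature Extraction (circles) and the sum of the total probe signals of its own detected probes (squares) for the 11 detected miRNAs (x axis, in order of number) on the arrays of replicate 1 (left) and replicate 2 (right), on a logarithmic axis in the total-signal scale of the software, which is not that of the mean spot intensities. From miR-5128 on, the totals stay near that of miR-5126, up to 539 and 289, while the squares drop to 2.36.

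In the log2 table deposited by the authors, all 11 detected miRNAs lay above the lowest value of −3.32 in both columns, and of the other 27 only miR-5132-5p did, in the column of replicate 2 at −2.17. Within the 11, the table and the levels correlated with rho = 0.945 (Spearman) in replicate 1 and 0.882 in replicate 2. The dimmest miRNAs differed most between its columns. The values of miR-5131 were −0.82 and 1.77, those of miR-5132-3p −0.80 and 1.57, and those of miR-5130 0.08 and 1.74, although their detected probes had ratios between 0.985 and 1.09 on the arrays. The scale and centring of this table are unknown, so its differences are values of that table and not changes in intensity.

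The share detected was set beside that of other numbered blocks of mouse miRNAs. Of the 107 miRNAs numbered miR-3057 to miR-3112, 12 were detected on both arrays, or 11.2%, and of the 120 numbered miR-6335 to miR-6420 and miR-8090 to miR-8120, 12, or 10%, against 28.9% here. All mouse miRNAs outside the set had 11.1%. The median level of the detected miRNAs was −1.78 for the set, −1.40 and −0.46 for the other blocks and −1.45 for all miRNAs outside the set, so that more of the set were detected, at a median level that was not higher. These levels average over undetected probes as well, which can lower the set more. Its probes differed by a median of 1.40 on the log2 scale, against 0.46 over the array. Medians by the brightest probe were not compared. The blocks were chosen by number and were not matched for base composition, and no test of the difference was made.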

How the data were processed

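Exosomal RNA of LLC cells was hybridized to 2 Agilent mouse miRNA arrays. The authors deposited the fluorescence intensity of each spot with background subtracted, totals per probe and per miRNA and detection flags, from Feature Extraction 10.7.1.1 per the file headers (the submitters' processing notes name version 9.1). The arrays were not normalized to each other. The labels describe a blood RNA kit and cRNA labelling, and whether these apply to the exosomes was not settled. The deposited log2 table, whose making is not given in the sources used here, served as an alternative, and the median of each column was −3.32.

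Members were rows with control type 0 and a name from miR-5097 to miR-5136. Members, lists and tests were chosen with earlier results of these data known. Outlier spots were left out, 8 of the members' spots in replicate 1 and 21 in replicate 2, and 0 spots were saturated. Signals were divided by the 75th percentile of the probes that both arrays detected, 0 and negative values took the smallest positive one, and log2 values were averaged per probe and miRNA. Every detected miRNA was named, with the 3 brightest of the others. Sequences and gene spans came from RefSeq tables of GRCm38.p6. The computation was tested on simulated data with the same mean signal in all probes of a miRNA. Dim signals and unequal probes were not simulated. Python 3.11.15, numpy 2.4.6, pandas 2.3.3, scipy 1.17.1, R 4.3.3 and limma 3.58.1 were used. The alternatives covered the detection call, scaling, background correction, spot and probe summaries, the log2 table and each replicate left out. The number of arrays limits the precision.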

Additional observations from a re-analysis of the deposited data

How the results depend on the processing

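The number of detected miRNAs was 11 and fell to 7 when spots had to lie well above background, and it was from 11 to 15 under the other alternatives. It was 11 without replicate 1 and 11 without replicate 2. With normexp background correction, whose offset of 50 units is added to every spot and so evens out dim signals, Pearson's r was 0.996, the 5 brightest held 58.1% of the summed signal in place of 95.8%, and the median difference between probes, over all 11 miRNAs with undetected probes included, was 0.28 in place of 1.40. With the median of the spots, Pearson's r was 0.993 and the difference between probes 1.31. The lowest values of Pearson's r were 0.903, with the log2 of the mean of the spots, and 0.953, with the deposited log2 table. With the totals of Feature Extraction, Spearman's rho was 0.991 and the share of the 5 brightest 81.7%, and with the sum of the detected probes that share was 97.3%. With 1 replicate left out in turn, the share ranged from 94.9% to 96.6% and the difference between probes from 1.37 to 1.48, and the correlation cannot be computed. The median difference between the arrays ranged from 0.14 to 0.81 in all alternatives. Of 132 levels and 132 ranks of single miRNAs under 12 alternatives, 55 and 40 moved by more than the SD between the arrays. Scaling to the percentile of all probes shifted every level alike, from 4.21 to 8.43 in miR-5100 and from −8.34 to −4.13 in miR-5130. Ranks stayed the same there. Normexp with its offset and the deposited log2 table also put levels on another scale. All 11 levels counted as moved under each of these alternatives, so these moves cannot be read as instability. The log2 of the mean of the spots was an alternative chosen after seeing the data, and so were the limits within which a value counts as unmoved, for example 0.879 to 0.992 for Pearson's r. No paired analysis was possible because both arrays belong to 1 group. The rank of miR-5128 moved from 160 to 80 without replicate 2 and to 196 without replicate 1. Signal over background limits all values of a few units.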
